A study of Mus musculus with 9 samples.

Results

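The Myc, Max and Mxd network was taken as 9 genes chosen by symbol, *Myc*, *Mycn*, *Max*, *Mxd1*, *Mxd3*, *Mxd4*, *Mxi1*, *Mnt* and *Mga*, out of the 53077 genes listed for every sample. RNA was sequenced from cultures of 5TGM1, a mouse multiple myeloma line, and every culture carried a lentiviral Cas9 transgene. The 9 samples fall into 3 groups of 3 replicates, which received a control gRNA, a gRNA against *Slc2a1*, or a set of 5 gRNAs that targeted *Slc2a1* and also *Slc2a3*, *Slc2a5*, *Slc2a6* and *Slc2a8* (the *Slc2a1/3/5/6/8* gRNAs). *Slc2a1* encodes the glucose transporter GLUT1, and the other targeted genes encode related hexose transporters. The cultures are transduced populations and not clones, and the cells with the *Slc2a1/3/5/6/8* gRNAs were made in steps, from a sorted line that already carried the other 4 gRNAs before the one against *Slc2a1* was added. Of the 9 network genes, 8 had estimated counts in every sample and passed edgeR's filter on low counts, among 13834 genes tested. *Mycn*, a MYC relative used mainly in embryonic and neural tissue, had an estimated count of 0 in all 9 samples. At 3 counts of a library this allows up to between 0.0982 and 0.137 CPM, which are counts scaled to the library total, for counting error only.

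MYC is a basic helix-loop-helix leucine zipper protein that binds DNA as a dimer with MAX, with a preference for the E-box CACGTG, and recruits histone acetyltransferases through TRRAP. MXD1, MXD3, MXD4, MXI1 and MNT compete for MAX and bring the SIN3 corepressor with its histone deacetylases to the same sites, while MGA joins MAX to a Polycomb complex named PRC1.6. Genes of ribosome biogenesis, nucleotide synthesis and the cell cycle are the best known targets of MYC, and in mouse plasma cell tumours *Myc* is often joined to an immunoglobulin locus by translocation.

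Estimated counts summed to between 21838805 and 30537105 per sample. The plasma cell genes *Sdc1*, *Xbp1*, *Prdm1* and *Irf4* were detected in every sample, at group means of 68.2 to 94.6, 430 to 469, 23.3 to 29.1 and 110 to 124 TPM (transcript abundance corrected for length and library size), while *Tnfrsf17*, the plasma cell receptor BCMA, stayed at or under 1.36 TPM. *Jchain*, the immunoglobulin joining chain, was at 56.2 ± 3.43 TPM with the control gRNA, 20.4 ± 5.99 with the *Slc2a1* gRNA and 80.7 ± 14.9 with the *Slc2a1/3/5/6/8* gRNAs (SD, n = 3). It fell by 1.33 in the first deleted group and rose by 0.59 in the second on the log2 scale (edgeR's adjusted p = 0.00529 and 0.0348). The summed TPM of 8 plasma cell markers lay between 743 and 1100 with the control gRNA, 672 and 889 with the *Slc2a1* gRNA and 824 and 997 with the *Slc2a1/3/5/6/8* gRNAs. Markers of B cells, T cells, myeloid cells and erythroid and stromal cells, 6 of each kind, summed to at most 1.76 TPM in any sample. Mitochondrial genes took 4.84 to 8.01% of the estimated counts with the control gRNA, 6.57 to 10.5% with the *Slc2a1* gRNA and 4.91 to 11.1% with the *Slc2a1/3/5/6/8* gRNAs. Within each group the replicate with the lowest mitochondrial share, replicate 3, held the highest normalised count for 6, 6 and 5 of the 8 detected members, and the part of this share in the results below was not tested. As for the targeted genes, *Slc2a1* had 198, 95.2 and 94.0 CPM on scaled library sizes in control, 123, 98.5 and 98.0 with the *Slc2a1* gRNA and 93.3, 91.8 and 52.9 with the *Slc2a1/3/5/6/8* gRNAs, so that control replicate 1 stood apart. It did not pass with the *Slc2a1* gRNA, with a log2 fold change of -0.21 (adjusted p = 0.544, standard error, SE, 0.18, edgeR's quasi-likelihood test), which turned to 0.04 without control replicate 1. With the *Slc2a1/3/5/6/8* gRNAs it was at -0.66 (adjusted p = 0.029, SE 0.18), but at -0.41 without control replicate 1 (adjusted p = 0.222). The call was kept in 2 of 6 fits that left out 1 sample. By edgeR it was lost without a block for replicate number (-0.70, adjusted p = 0.101) and with an offset for effective length (-0.54, adjusted p = 0.0972). Limma on log2(TPM + 1) did not call it either (-0.60, adjusted p = 0.199). With these gRNAs *Slc2a8* fell by 1.22 and passed in all 6 fits that left out 1 sample. *Slc2a6* fell by 0.67 and passed in 0 of 6, and *Slc2a3* had 0.27 without passing. *Slc2a5* rose by 2.65 in edgeR's fit on counts, while its mean TPM was 0.226 in control and 1.00 with these gRNAs. The paper, by a paired analysis of variance, reports a significant reduction of *Slc2a1* transcript in the deleted cultures, unlike the *Slc2a1* gRNA result here. Small insertions and deletions can leave a transcript in place, so these levels do not check the editing. The paper checked it by sequencing the targeted sites, and also measured GLUT1 staining and uptake of labelled glucose. Part of the cells in its *Slc2a1* gRNA cultures remained GLUT1-positive.

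In control cultures *Myc* was by far the most abundant member per unit of transcript length. It had 127, 129 and 159 TPM in replicates 1, 2 and 3, a mean of 138 ± 18.0 (SD, n = 3), which exceeded that of 95.9% of the genes tested. *Max*, which encodes the partner of MYC, followed with 34.7 ± 12.0 TPM (SD, n = 3), and *Mxi1* with 29.0 ± 5.69 TPM (SD, n = 3). *Mga* had 17.4 ± 4.83, *Mxd3* 15.1 ± 2.67, *Mnt* 13.1 ± 3.40 and *Mxd4* 9.77 ± 2.57 TPM (SD, n = 3), and *Mxd1* was lowest of the detected members at 3.91 ± 0.89 TPM (SD, n = 3). The lowest *Myc* replicate lay above every *Max* replicate and the lowest *Mxd4* replicate above every *Mxd1* replicate, but the ranges of all other neighbours in this order overlapped. Without the correction for length the order changed for 6 of the members, because *Mga*, *Mnt* and *Mxd4* transcripts are long, and *Max* then stood in the fifth place.

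*Myc* was higher in both kinds of deleted culture. Its normalised counts (CPM on library sizes scaled by the trimmed mean of M values, TMM) were 265, 285 and 307 in control replicates 1, 2 and 3. They were 388, 403 and 429 with the *Slc2a1* gRNA and 478, 503 and 575 with the *Slc2a1/3/5/6/8* gRNAs. The 3 groups did not overlap on this scale, whereas neighbouring groups did in TPM (127 to 159, 157 to 192 and 172 to 290). By edgeR's quasi-likelihood test with Benjamini-Hochberg adjustment over all genes tested, *Myc* rose 1.42-fold with the *Slc2a1* gRNA (log2 fold change 0.51, SE 0.10, adjusted p = 0.0209) and 1.81-fold with the *Slc2a1/3/5/6/8* gRNAs (0.86, SE 0.10, adjusted p = 0.000462). Between the deleted cultures its log2 difference was 0.35 (SE 0.10) and did not pass the test (adjusted p = 0.0963), although it passed with DESeq2 (0.345, adjusted p = 0.0125). Both comparisons with control share the same 3 control samples. The p-values rest on the spread left within groups over all 9 samples, after the block for replicate number. The study calls its samples biological replicates. It describes a sorted line from which the cells with the *Slc2a1/3/5/6/8* gRNAs were made. If their replicates share that line, spread between separately made lines is not covered. In RNA from whole cultures, a difference in some of the cells and a smaller one in all of them cannot be told apart.

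The rise of *Myc* with the *Slc2a1/3/5/6/8* gRNAs passed under every alternative and without any single one of the 6 samples compared. Its log2 fold changes were 0.73 to 0.88. With the *Slc2a1* gRNA the size was steady on counts but the call was not. Leaving out 1 of the 6 samples compared gave 0.49 to 0.53, with adjusted p-values from 0.0341 to 0.154, and the call was kept only without *Slc2a1* gRNA replicate 3. On the TPM scale it was 0.30 (limma on log2(TPM + 1), adjusted p = 0.284) and did not pass, nor did it with an offset for effective length (0.46 by edgeR, adjusted p = 0.0581). The gene lies on chromosome 15 of GRCm38 at chr15:61985391-61990374 on the plus strand in GENCODE M21, and none of its exonic bases is shared with another gene.

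**Figure D1:**
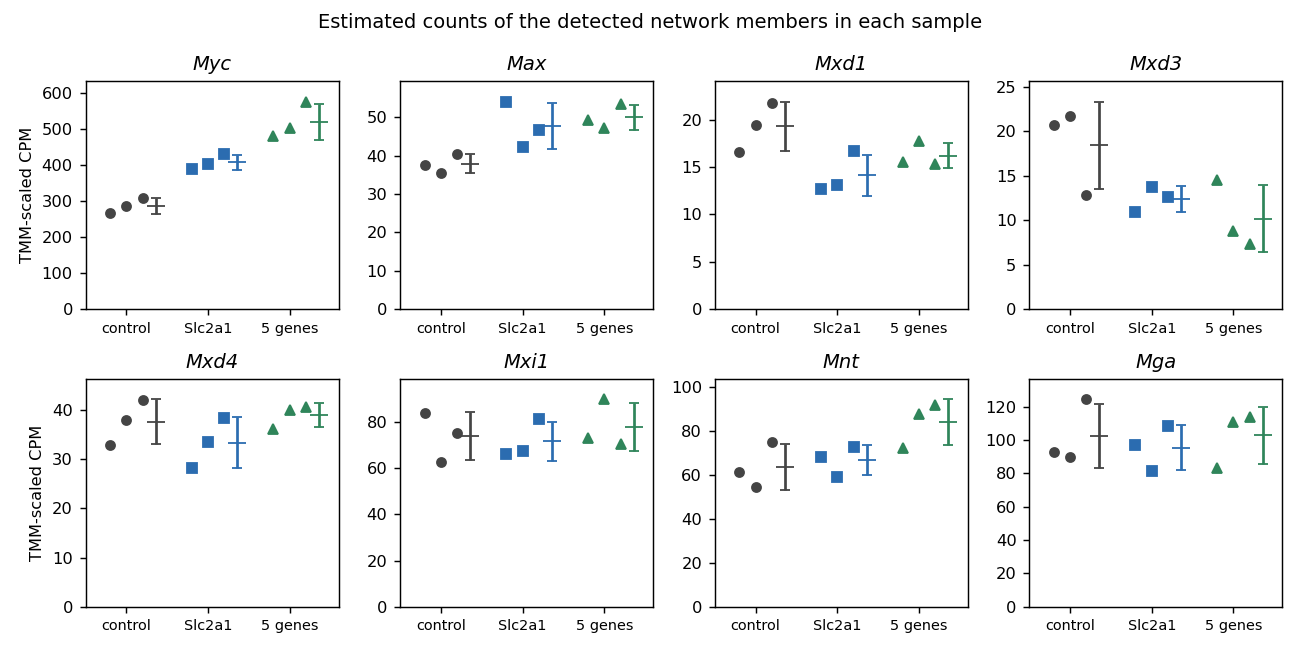
Normalised counts (TMM-scaled CPM, vertical axes from 0) of the 8 detected members in each sample, by gRNA group (5 genes stands for the *Slc2a1/3/5/6/8* gRNAs), with replicates 1 to 3 from left to right and the mean ± SD beside them. The *Myc* panel shows 3 groups that do not overlap, from 265 to 307, 388 to 429 and 478 to 575.

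*Max*, which encodes the partner of MYC, was also higher with the *Slc2a1/3/5/6/8* gRNAs. Its normalised counts were 37.6, 35.6 and 40.5 in control cultures, 54.0, 42.2 and 46.7 with the *Slc2a1* gRNA, and 49.3, 47.1 and 53.5 with the *Slc2a1/3/5/6/8* gRNAs. Every deleted sample lay above every control sample, while the deleted groups overlapped each other. *Max* rose 1.32-fold with the *Slc2a1/3/5/6/8* gRNAs (log2 fold change 0.40, SE 0.11, adjusted p = 0.0256 by edgeR's quasi-likelihood test). With the *Slc2a1* gRNA it was at 0.33 (SE 0.11, adjusted p = 0.0976), and between the deleted cultures at 0.07 (SE 0.11, adjusted p = 0.767), neither of which passed.

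In the deposited quantification the reads of *Max* were assigned to transcripts of different length in different samples. The deposited gene length is a mean over a gene's transcripts weighted by their abundance, and for *Max* it was 1428, 1248 and 1056 bases in control replicates. It was 1384, 1433 and 1472 bases with the *Slc2a1* gRNA and 1060, 933 and 1045 bases with the *Slc2a1/3/5/6/8* gRNAs. The deleted groups did not overlap each other in this length, whereas control spanned most of the distance between them, with replicate 3 alongside the *Slc2a1/3/5/6/8* gRNA samples. GENCODE M21 lists 7 *Max* transcripts, of which 3 are protein-coding, with 752, 1926 and 1942 bases. The others are not listed as protein-coding and have 203 to 819 bases. Whether coding or other transcripts took the reads was not tested. Where the mean length was short the same counts gave a higher TPM, so that *Max* had 27.1, 28.6 and 48.5 TPM in control, 37.4, 26.1 and 33.1 TPM with the *Slc2a1* gRNA and 40.9, 61.4 and 62.6 TPM with the *Slc2a1/3/5/6/8* gRNAs. On that scale the difference of the *Slc2a1* gRNA from control turned to -0.07, and that of the *Slc2a1/3/5/6/8* gRNAs grew to 0.67 but no longer passed (limma on log2(TPM + 1), adjusted p = 0.120). With an offset for effective length it was 0.76 by edgeR (adjusted p = 0.0208).

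**Figure D2:**
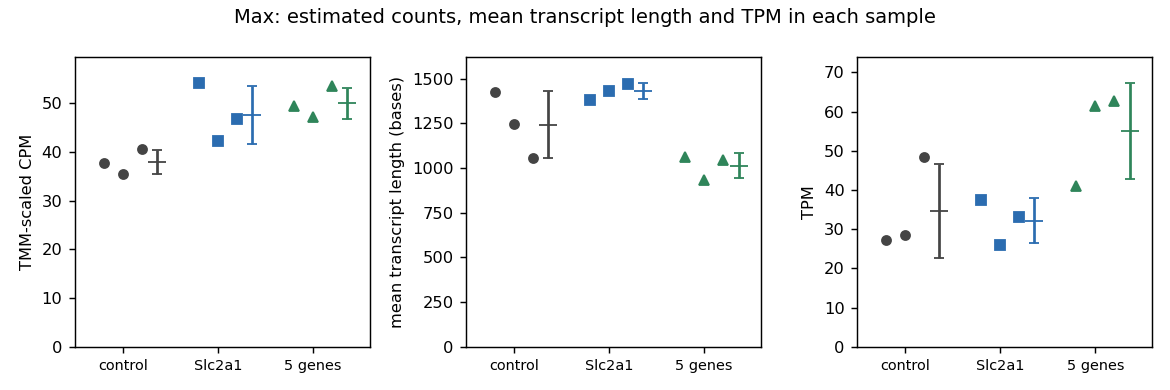
*Max* in each sample as TMM-scaled CPM, mean transcript length in bases and TPM (vertical axes from 0), by gRNA group (5 genes stands for the *Slc2a1/3/5/6/8* gRNAs), with replicates 1 to 3 from left to right and the mean ± SD beside them. The lengths with the *Slc2a1/3/5/6/8* gRNAs, 933 to 1060 bases, lie under those with the *Slc2a1* gRNA, 1384 to 1472 bases.

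Over the members, the deposited mean length separated the groups without overlap for 0 of 8 with the *Slc2a1* gRNA against control, where 12.5% of 10808 genes with a varying length did so. It did for 1 of 8 with the *Slc2a1/3/5/6/8* gRNAs against control (16.1% of all), which was *Mxd3*, and for 2 of 8 between the deleted cultures (10.6% of all), *Max* and *Mxd4*. The *Mxd3* difference was small, with means of 1339 and 1331 bases. Length varied little in *Myc*, from 2048 to 2205 bases, and more in *Mga*, from 5379 to 6026 bases. The shortest protein-coding *Mga* transcript in GENCODE M21 has 6995 bases, more than any of these means. By that annotation, part of the TPM of *Mga* would belong to shorter transcripts not listed as coding.

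Among the genes that compete with MYC for MAX, *Mxd3*, a repressor expressed in dividing cells, was lower and *Mnt*, the most widely expressed MYC antagonist, was higher with the *Slc2a1/3/5/6/8* gRNAs. *Mxd3* had 20.7, 21.7 and 12.8 normalised counts in control, 10.9, 13.7 and 12.5 with the *Slc2a1* gRNA, and 14.5, 8.73 and 7.30 with the *Slc2a1/3/5/6/8* gRNAs. Control replicate 3 was the low control, and replicate 1 with the *Slc2a1/3/5/6/8* gRNAs overlapped it. *Mxd3* was 1.82-fold lower with the *Slc2a1/3/5/6/8* gRNAs (log2 fold change -0.86, SE 0.21, adjusted p = 0.0179 by edgeR's quasi-likelihood test). With the *Slc2a1* gRNA its value was -0.52 (SE 0.21, adjusted p = 0.167), which did not pass. Leaving out 1 of the 6 samples in that comparison gave -0.772 to -0.266. In GENCODE M21 it lies at chr13:55325168-55329823 on the minus strand, and 4.43% of its exonic bases overlap *Prelid1* on the other strand.

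*Mnt* had 61.2, 54.3 and 74.9 normalised counts in control, 68.0, 59.1 and 72.8 with the *Slc2a1* gRNA, and 72.3, 87.6 and 91.9 with the *Slc2a1/3/5/6/8* gRNAs. The groups overlapped, because control replicate 3 lay above replicate 1 with the *Slc2a1/3/5/6/8* gRNAs. *Mnt* rose 1.33-fold (log2 fold change 0.41, SE 0.12, adjusted p = 0.0337 by edgeR's quasi-likelihood test), and had 0.08 with the *Slc2a1* gRNA (SE 0.12, adjusted p = 0.756) and 0.33 between the deleted cultures (SE 0.12, adjusted p = 0.148). Its call rests on the block for replicate number in the fit, since *Mnt* did not pass without it (0.40, adjusted p = 0.0702). In this comparison the correlations between deviations of same-numbered samples, -0.15 to 0.21, lay within the range of other pairs, -0.39 to 0.25. With library totals in place of TMM neither *Mnt* (0.36, adjusted p = 0.0892) nor *Max* (0.35, adjusted p = 0.0605) passed. *Max*, *Mxd3* and *Mnt* did not pass with limma on log2(TPM + 1), and their calls depended on the samples included. Of the 6 fits that left out 1 sample, only the one without replicate 1 of the *Slc2a1/3/5/6/8* gRNAs kept *Max* and *Mnt*, and that one and the one without control replicate 3 kept *Mxd3*. The adjusted p-values reached 0.175, 0.0999 and 0.178 in the other fits.

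The other antagonists passed in no comparison by edgeR's test on all 9 samples. *Mxd1*, a MYC antagonist induced in differentiating cells, had 16.6, 19.5 and 21.8 normalised counts in control against 12.6, 13.1 and 16.6 with the *Slc2a1* gRNA, which met at 16.6, with a log2 difference of -0.45 (SE 0.14, adjusted p = 0.085 by edgeR's quasi-likelihood test). It passed in a fit of only the 2 groups compared (-0.45, adjusted p = 0.0214). The *Slc2a1/3/5/6/8* gRNA samples had 15.5, 17.8 and 15.3, a difference of -0.24, or -0.325 to -0.089 without 1 of the 6 samples compared. *Mxd4*, *Mxi1* and *Mga* had log2 differences between -0.18 and 0.23 in the 3 comparisons, with SEs of 0.10 to 0.14. Their ranges over all 9 samples were 28.1 to 41.9, 62.9 to 89.7 and 81.2 to 124 normalised counts. A p that misses the threshold does not show that these genes were unchanged.

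**Figure D3:**
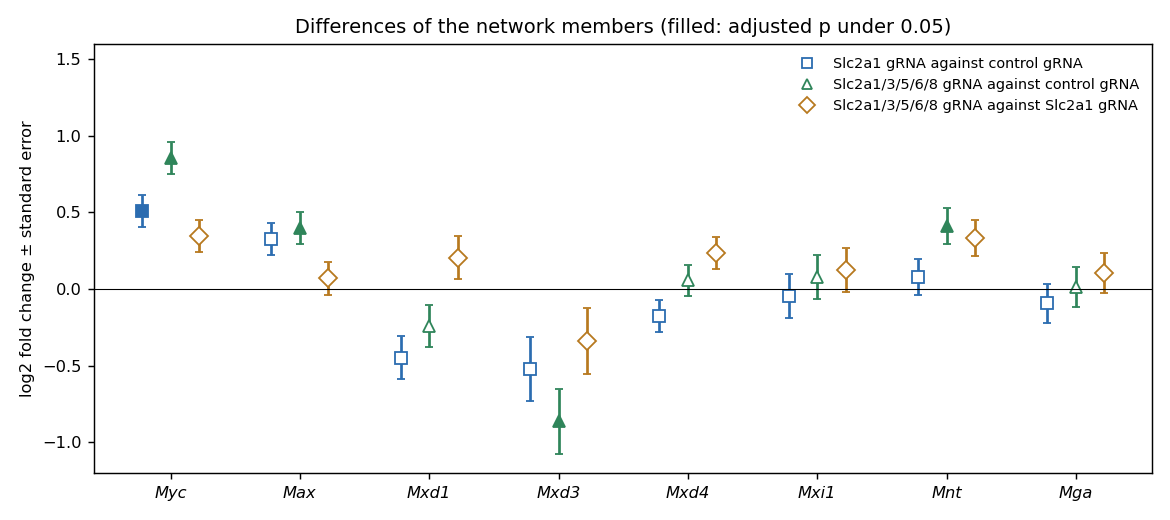
Log2 fold change ± standard error of the 8 detected members in the 3 comparisons (edgeR's quasi-likelihood fit), with filled symbols where the adjusted p was under 0.05. *Myc* is filled in both comparisons with control, *Max*, *Mxd3* and *Mnt* with the *Slc2a1/3/5/6/8* gRNAs, and no member between the deleted cultures.

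Counted over the members, 1 of 8 passed the test with the *Slc2a1* gRNA against control, where 4.64% of all genes tested passed, 2.25% higher and 2.39% lower. Against the same control, 4 of 8 passed, 3 higher and 1 lower, for the *Slc2a1/3/5/6/8* gRNAs, where 15.9% of all genes passed, 8.49% higher and 7.44% lower. These shares move with the samples included. Leaving out 1 of the 6 samples compared gave 11 to 943 calls among all genes in the first comparison, where 642 were made. In the second it gave 631 to 2406, where 2204 were made. Between the deleted cultures 0 of 8 passed in edgeR's quasi-likelihood test, where 2.31% of all genes passed, 1.36% higher and 0.947% lower. In that comparison 3 members had an unadjusted p under 0.05 (*Myc*, *Mxd4* and *Mnt*), DESeq2 called 1 and limma on log2(TPM + 1) called 0. The median log2 difference of the 8 members was -0.07, 0.07 and 0.16 in the 3 comparisons, beside 0.00, 0.01 and 0.00 over all genes.

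Summed over the 6 antagonists (*Mxd1*, *Mxd3*, *Mxd4*, *Mxi1*, *Mnt* and *Mga*), TPM lay between 75.7 and 103 in control, 62.1 and 88.0 with the *Slc2a1* gRNA and 63.1 and 94.8 with the *Slc2a1/3/5/6/8* gRNAs, which overlapped throughout. The ratio of *Myc* to this sum was 1.47, 1.70 and 1.55 in control replicates 1, 2 and 3. It was 2.43, 2.52 and 2.18 with the *Slc2a1* gRNA and 2.73, 2.54 and 3.09 with the *Slc2a1/3/5/6/8* gRNAs. Every deleted sample was above every control sample, and the deleted groups were next to each other without overlap. *Myc* made up 51.3 to 55.3% of the TPM of all members in control, 60.9 to 64.0% with the *Slc2a1* gRNA and 60.6 to 64.9% with the *Slc2a1/3/5/6/8* gRNAs. The ratio of *Myc* to *Max* showed no such step, at 3.28 to 4.69, 4.31 to 6.02 and 3.91 to 4.63. These ratios describe transcripts and not proteins, and the TPM of *Mga* in the sum may include non-coding transcripts. They were not tested.

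**Figure D4:**
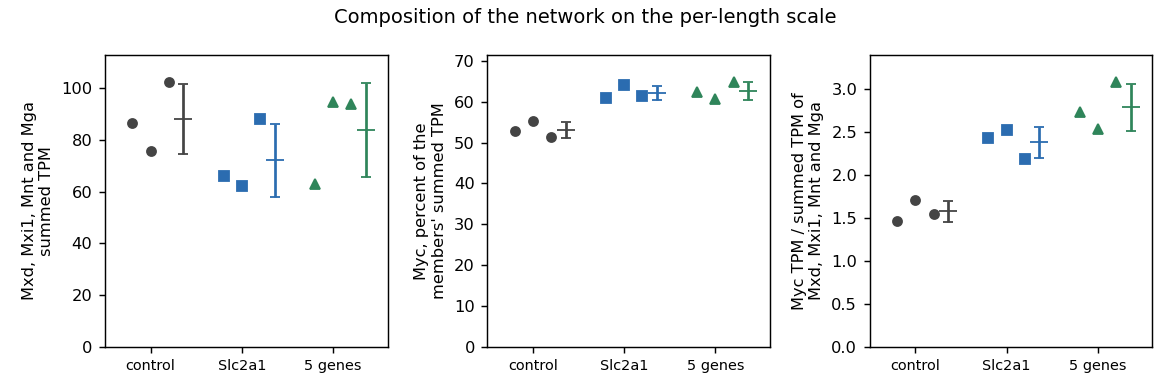
Summed TPM of the 6 antagonists, *Myc* as a percentage of the members' summed TPM, and the ratio of *Myc* to the antagonists in each sample (vertical axes from 0), by gRNA group (5 genes stands for the *Slc2a1/3/5/6/8* gRNAs), with replicates 1 to 3 from left to right and the mean ± SD beside them. The antagonist sums overlap, whereas the ratio is 1.47 to 1.70 in control and at least 2.18 in the deleted samples.

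The promoter windows of the 3 called members other than *Myc* are shown because the network binds the letters CACGTG, which read alike on both strands. RefSeq windows on GRCm38.p6, from 250 bases before to 50 bases after each gene's start, were at hand for 8 of the 9 members, not for *Myc*. Capitals mark CACGTG in the sequences, which run 5′ to 3′ on the gene's strand.
*Max*, chr12:76962199-76962498, minus strand: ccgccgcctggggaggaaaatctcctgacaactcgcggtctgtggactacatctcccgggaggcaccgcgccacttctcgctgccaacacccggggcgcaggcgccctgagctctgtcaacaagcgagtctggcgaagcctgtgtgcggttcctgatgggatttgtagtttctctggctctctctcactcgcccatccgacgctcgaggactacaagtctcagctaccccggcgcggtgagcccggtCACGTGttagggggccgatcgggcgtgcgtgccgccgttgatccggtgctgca
*Mnt*, chr11:74830674-74830973, plus strand: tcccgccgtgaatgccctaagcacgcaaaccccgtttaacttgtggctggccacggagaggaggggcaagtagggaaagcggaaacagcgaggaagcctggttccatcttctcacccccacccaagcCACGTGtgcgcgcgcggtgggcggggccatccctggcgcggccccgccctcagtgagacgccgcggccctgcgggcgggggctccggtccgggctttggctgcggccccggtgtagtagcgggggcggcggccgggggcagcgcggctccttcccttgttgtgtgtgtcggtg
*Mxd3*, chr13:55329682-55329981, minus strand: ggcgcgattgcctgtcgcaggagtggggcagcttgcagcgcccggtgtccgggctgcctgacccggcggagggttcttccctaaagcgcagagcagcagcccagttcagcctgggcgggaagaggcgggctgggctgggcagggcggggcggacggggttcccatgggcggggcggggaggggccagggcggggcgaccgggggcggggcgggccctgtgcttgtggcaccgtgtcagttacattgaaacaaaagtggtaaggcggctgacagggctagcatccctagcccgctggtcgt
The motif of *Max* begins 3 bases before the start and that of *Mnt* 123 bases before it, and these letters are not in the *Mxd3* window. The only other member with a match was *Mxd4*, whose motif begins 219 bases before the start, so that 3 of 10 member windows held one, beside 7.15% of all 32851 windows and 9.86% of the 12515 windows of genes tested. A match is a description of the sequence and not a site.

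Known MYC targets were then examined from 3 lists of genes. The lists were chosen with earlier results of these data known, so the counts below are a description and not an independent test. Among 21 targets in ribosome biogenesis, 9 rose and 0 fell with the *Slc2a1* gRNA (edgeR's quasi-likelihood test, median log2 difference 0.54), and 14 rose and 0 fell with the *Slc2a1/3/5/6/8* gRNAs (median 0.60), beside medians near 0 over all genes. Of all genes tested, 2.25% rose in the first of these comparisons and 8.49% in the second, which is the background for every count of targets that rose. This background was not matched to the targets for the level of counts. *Nop56*, a core protein of box C/D small nucleolar ribonucleoproteins, had 272, 321 and 284 normalised counts in control, 496, 541 and 414 with the *Slc2a1* gRNA and 563, 490 and 659 with the *Slc2a1/3/5/6/8* gRNAs. Both deleted groups lay above control without overlap, at log2 fold changes of 0.73 (SE 0.15, adjusted p = 0.0202) and 0.97 (SE 0.15, adjusted p = 0.00158). *Eif4a1*, the helicase of the cap-binding complex, and *Rrs1*, a ribosome assembly factor, also rose with the *Slc2a1* gRNA, by 0.63 and 0.68. With this gRNA the calls of *Nop56*, *Eif4a1* and *Rrs1* were each kept in 1 of 6 fits that left out 1 sample, and lost with limma. *Nop58*, the partner of NOP56, and *Ppan*, a factor of the large ribosomal subunit, both rose by 0.87 with the *Slc2a1/3/5/6/8* gRNAs.

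Among 21 targets in metabolism and protein folding, 9 rose and 0 fell with the *Slc2a1* gRNA (median 0.29), and 8 rose and 0 fell with the *Slc2a1/3/5/6/8* gRNAs (median 0.31). *Apex1*, the abasic site endonuclease of base excision repair, had 13.1, 17.7 and 17.9 normalised counts in control, 30.5, 32.8 and 30.8 with the *Slc2a1* gRNA and 38.3, 26.6 and 36.4 with the *Slc2a1/3/5/6/8* gRNAs. It rose by 0.95 and 1.06 on the log2 scale (SE 0.16 for each, adjusted p = 0.0113 and 0.00156 by edgeR's quasi-likelihood test), and every deleted sample exceeded every control sample. With the *Slc2a1* gRNA the *Apex1* call was kept in 1 of 6 fits that left out 1 sample, and lost with limma. With the *Slc2a1/3/5/6/8* gRNAs it was kept in all 6 and in all 8 other alternatives. *Ldha*, a subunit of lactate dehydrogenase, had 1260, 851 and 567 in control, 2159, 1912 and 1657 with the *Slc2a1* gRNA and 1486, 1259 and 1238 with the *Slc2a1/3/5/6/8* gRNAs. Only the *Slc2a1* gRNA group was clear of control, at a log2 fold change of 1.15 (SE 0.16, adjusted p = 0.0062). That of the *Slc2a1/3/5/6/8* gRNAs, 0.63, passed with overlapping values (SE 0.16, adjusted p = 0.019). The latter call was kept in 3 of 6 fits that left out 1 sample, and was lost with no replicate block and with limma.

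*Nme1*, a nucleoside diphosphate kinase, rose by 0.70 with the *Slc2a1* gRNA, a call kept in 1 of 6 fits that left out 1 sample. *Umps* and *Gart*, of pyrimidine and purine synthesis, rose by 0.56 and 0.50 with the *Slc2a1/3/5/6/8* gRNAs. Reads of *Nme1*, *Ldha* and *Npm1* could be divided with closely related genes or pseudogenes, which leaves their levels uncertain. The 10 cell cycle targets had median log2 differences of 0.13 and -0.05 in the comparisons with control. With the *Slc2a1* gRNA only *Cdk4*, a G1 cyclin-dependent kinase, passed (0.48, adjusted p = 0.0466), and with the *Slc2a1/3/5/6/8* gRNAs *Cdk4* (0.50, adjusted p = 0.0188) and *Ccnd2*, its partner cyclin D2 (0.54, adjusted p = 0.0159), by edgeR's quasi-likelihood test. The *Cdk4* call with the *Slc2a1* gRNA was lost in each of the 6 fits that left out 1 sample, with total count normalization, with the length offset and with limma. With the *Slc2a1/3/5/6/8* gRNAs *Cdk4* was kept in 3 and *Ccnd2* in 2 of 6 such fits, and neither with limma.

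Over the 3 lists, 52 targets were tested, of which 19 rose with the *Slc2a1* gRNA (2.25% of all genes) and 24 with the *Slc2a1/3/5/6/8* gRNAs (8.49% of all genes), 14 of them in both comparisons, which share their controls. Between the deleted cultures 0 of the 52 passed in edgeR's test, where 11 had an unadjusted p under 0.05, while DESeq2 called 2 and limma on log2(TPM + 1) called 0. The counts with the *Slc2a1* gRNA depended on the samples included. For the ribosome list the count was 14 without *Slc2a1* gRNA replicate 3 and 0 without any of the other 5 samples, and for the metabolism list it was 8 and at most 2. In both lists limma on log2(TPM + 1) called 0. Total count normalization left 6 and 4, and the length offset 1 and 2. The ribosome count was larger by DESeq2 (14), without the filter on low counts (16) and with only the groups compared (20), and the metabolism count was 9, 9 and 12. For the *Slc2a1/3/5/6/8* gRNAs the ribosome count was 8 without control replicate 1 and 9 without control replicate 3 or replicate 3 of the deleted group, and the metabolism count was 2 without each of these, whereas the fits without another sample gave 12 to 16 and 7 to 11. There limma called 2 and 1. Of 9 genes that MYC is known to repress, 5 were tested and 0 passed in any comparison by edgeR's test. An unadjusted p under 0.05 was seen for 2, 2 and 0 of them in the 3 comparisons, DESeq2 called 2, 1 and 0, and limma on log2(TPM + 1) called 0 in each. The closest were *Cdkn1b*, encoding the inhibitor p27, at -0.57 with the *Slc2a1* gRNA (adjusted p = 0.0588) and *Cdkn1a*, encoding p21, at -0.30 with the *Slc2a1/3/5/6/8* gRNAs (adjusted p = 0.0727), which were picked out after their values were seen.

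**Figure D5:**
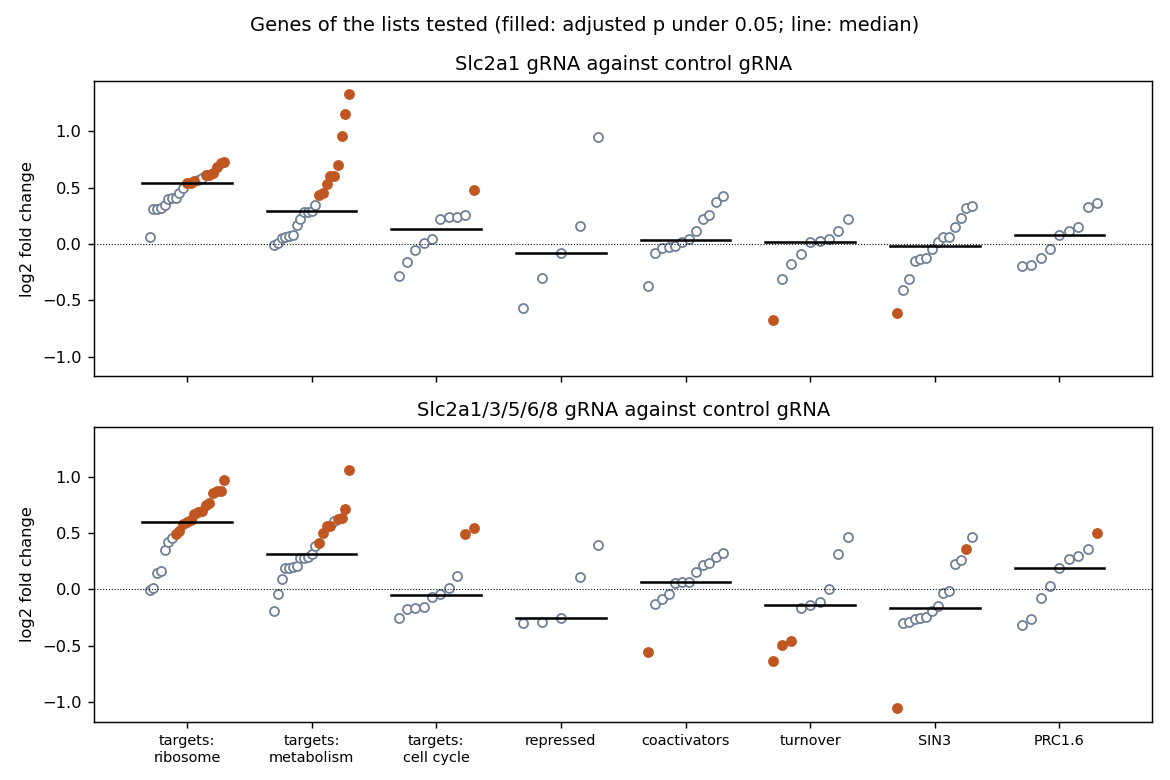
Log2 fold change against control of each tested gene in 8 lists (targets, repressed genes, cofactors and turnover factors of the network), sorted within a list, with filled points at an adjusted p under 0.05 and a line at the median. The ribosome biogenesis targets have medians of 0.54 and 0.60, and the filled points in the target lists all lie above 0.

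Several of the called targets carry CACGTG in their windows. Of the ribosome list 16 genes had a window and 6 of these held the motif, of the metabolism list 18 and 6, and of the cell cycle list 9 and 1, and as these genes were listed as known targets no inference is drawn from the shares. For the named genes with a match, 30 bases around the first motif are shown on the gene's strand, from the same RefSeq table on GRCm38.p6.
*Eif4a1*, chr11:69672595-69672624, minus strand: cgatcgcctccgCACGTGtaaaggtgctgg
*Ldha*, chr7:46845647-46845676, plus strand: ggtgtcgcagcaCACGTGgagccactcttg
*Apex1*, chr14:50924913-50924942, plus strand: gcgctccagaacCACGTGggggcggagccc
*Nme1*, chr11:93968273-93968302, minus strand: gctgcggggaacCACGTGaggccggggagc
*Cdk4*, chr10:127063351-127063380, plus strand: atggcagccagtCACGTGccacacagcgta
*Cdk4* has 4 such motifs in its window, *Apex1* 3 and *Ldha* 2, while the windows of *Nop56*, *Nop58*, *Ppan*, *Umps* and *Gart*, which also rose, hold none.

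The cofactors, turnover factors and relatives of the network, 47 tested genes in 5 lists, gave 2 calls with the *Slc2a1* gRNA and 7 with the *Slc2a1/3/5/6/8* gRNAs by edgeR's quasi-likelihood test, shares near the 4.64% and 15.9% of all genes. Of 12 coactivators 0 passed with the *Slc2a1* gRNA (3 at an unadjusted p under 0.05, 2 by DESeq2 and 0 by limma), and 1 fell with the *Slc2a1/3/5/6/8* gRNAs, *Trrap*, the scaffold of MYC's acetyltransferase complexes. It had 105, 85.1 and 114 normalised counts in control, 76.9, 76.9 and 81.1 with the *Slc2a1* gRNA and 59.5, 79.8 and 67.3 with the *Slc2a1/3/5/6/8* gRNAs, a log2 fold change of -0.56 for the latter (SE 0.14, adjusted p = 0.0173). Every sample of the deleted cultures lay below every control sample. Of 14 SIN3 corepressor genes *Arid4a*, a chromatin-binding subunit, fell by 0.61 with the *Slc2a1* gRNA (adjusted p = 0.0239). With the *Slc2a1/3/5/6/8* gRNAs the deacetylase gene *Hdac1* fell by 1.05 (SE 0.17, adjusted p = 0.00204) and the SIN3 subunit gene *Sap30* rose by 0.35 (adjusted p = 0.0431). *Hdac1* had 22.4, 20.8 and 15.5 normalised counts in control, 13.4, 14.6 and 15.7 with the *Slc2a1* gRNA and 9.30, 11.4 and 7.58 with the *Slc2a1/3/5/6/8* gRNAs, which separated the last group from the others. Its mean was 11.6 TPM in control and 5.61 with the *Slc2a1/3/5/6/8* gRNAs. *Hdac2*, a related deacetylase gene of the list, had 63.8 and 73.8 TPM. In edgeR's test *Hdac2* did not pass there (0.26, adjusted p = 0.113). The *Hdac1* call was kept in all 6 fits that left out 1 sample and in all 8 other alternatives. *Trrap* was kept in 3 of 6 and lost with limma, *Sap30* was kept in 1 of 6 and otherwise only by DESeq2, and *Arid4a* was kept only without *Slc2a1* gRNA replicate 3 and lost with limma and with the length offset.

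Among 9 genes that act on MYC protein stability, *Usp28*, a deubiquitinase that opposes the degradation of MYC, fell in both comparisons with control. It had 67.5, 64.8 and 69.8 normalised counts in control, 37.4, 36.7 and 52.6 with the *Slc2a1* gRNA and 45.4, 48.5 and 35.8 with the *Slc2a1/3/5/6/8* gRNAs. The deleted groups overlapped each other but not control, at log2 fold changes of -0.68 (adjusted p = 0.0307) and -0.64 (adjusted p = 0.0168) by edgeR's quasi-likelihood test. Also, with the *Slc2a1/3/5/6/8* gRNAs *Aurka*, a mitotic kinase that stabilises MYC family proteins, fell by 0.46 and *Cip2a*, an inhibitor of the phosphatase PP2A, fell by 0.49 (adjusted p = 0.0114 and 0.0213). Of 9 tested genes of the PRC1.6 complex only *Rybp*, a RING1-binding subunit, passed, with a rise of 0.50 for the *Slc2a1/3/5/6/8* gRNAs (adjusted p = 0.0199). The fall of *Usp28* with the *Slc2a1* gRNA was called only without *Slc2a1* gRNA replicate 3 among the 6 fits that left out 1 sample, and not by limma. With the *Slc2a1/3/5/6/8* gRNAs *Usp28* and *Cip2a* were kept in 2, *Aurka* in 3 and *Rybp* in 1 of 6 such fits, none of them by limma on log2(TPM + 1), and *Rybp* was also lost without the replicate block and with the length offset. *Mlx*, *Mlxip* and *Mycl*, relatives of MAX and MYC, did not pass in any comparison by edgeR, DESeq2 or limma, with *Mlx*, the only one at an unadjusted p under 0.05, closest at -0.34 for the *Slc2a1/3/5/6/8* gRNAs (adjusted p = 0.0757). Between the deleted cultures 0 genes of the coactivator, turnover, SIN3, PRC1.6 and relative lists passed in edgeR's test, 11 of the 47 had an unadjusted p under 0.05, and DESeq2 called 2 and limma 0.

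The genes whose normalised counts followed each called member most closely over the 9 samples were named by Pearson's r of log2(CPM + 1) among 8314 genes with a mean of at least 5 TPM. For *Myc* they were *Ado* (r = 0.978), *Dennd10* (0.974) and *Xxylt1* (0.974), and for *Max* *Tcea1* (0.985), *Mapkapk3* (0.979) and *Surf6* (0.964). For *Mxd3* they were *Dap3* (0.991), *2810408I11Rik* (0.986) and *H2az2* (0.983), and for *Mnt* *Sertad2* (0.978), *Trim30a* (0.967) and *Zfyve9* (0.966). With so many candidates, 9 samples in 3 groups and shared library effects such as the mitochondrial share, these values are a description of likeness alone.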

How the data were processed

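RNA from 5TGM1-Cas9 cultures in 3 groups of 3 replicates was analysed, grouped by the titles and treatments in the labels. The authors prepared cDNA with oligo-dT primers, sequenced paired reads and ran Salmon (version 1.5.1 in the submitters' processing notes), and the annotation is not given in the sources used here. The deposited gene tables hold an estimated count, a TPM value, and a length and effective length in bases (unit other) for each of 53077 genes, of which 49351 names occur in GENCODE M21. The authors' estimated counts summed to 21838805 to 30537105 per sample.

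After rounding, estimated counts entered the quasi-likelihood test of edgeR 4.0.16 (R 4.3.3) with TMM and its default filter on low counts. A block for replicate number was included, since the study states a paired analysis. All 9 samples shared one fit, and p-values were adjusted by Benjamini-Hochberg over the 13834 genes tested, with a threshold of 0.05. Standard errors were derived from the F statistic. Normalised counts are CPM on TMM-scaled library sizes. Replicates differed by more than sampling noise (chi-squared of 20.8 or more per degree of freedom).

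Alternatives were DESeq2 1.42.0, a fit with no block, library totals in place of TMM, no filter, only the groups compared, limma 3.58.1 on log2(TPM + 1) and log2(TPM + 0.1), leaving out each sample, CPM for the order of levels and effective length for length. An offset for effective length was added after seeing the data. The code was tested on simulated data.

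The members and gene lists were chosen with earlier results of these data known, and 1 gene of the protein stability list is not reported here. From each list up to 3 higher and 3 lower genes with the smallest adjusted p in a comparison were named, with all 9 members and the 3 genes most like each called member. The targeted *Slc2a* genes were also named, although their transcript levels do not check the editing. Sequences come from RefSeq (GRCm38.p6) and gene positions from GENCODE M21 (GRCm38). Splitting of reads between similar genes, and overlap with antisense genes, could affect the estimated counts, since no strand setting is given.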

Additional observations from a re-analysis of the deposited data

How the results depend on the processing

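With the *Slc2a1* gRNA against control, 1 of 8 members was called in the reported fit and with DESeq2, with no replicate block and with total count normalization. The number was 2 (*Myc* and *Mxd3*) with no filter, 4 (also *Max* and *Mxd1*) with only the groups compared, and 0 with limma on log2(TPM + 1), with limma on log2(TPM + 0.1) and with the length offset. Leaving out 1 of the 6 samples compared gave 0 to 1. With the *Slc2a1/3/5/6/8* gRNAs against control, 4 were called in the reported fit and 2 (*Myc* and *Mxd3*) with total count normalization. Limma on log2(TPM + 1) called 1 (*Myc*) and on log2(TPM + 0.1) 2. Leaving out 1 of the 6 samples in this comparison gave 1 to 4. Between the deleted cultures 0 were called except with DESeq2, which called 1, and leaving out 1 of the 6 samples compared gave 0 to 0.

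Without the replicate block the counts were 1, 3 and 0 in the 3 comparisons, and *Mnt* was the call lost (adjusted p = 0.0702). Deviations of same-numbered samples correlated over 0.1 in all 3 pairs of the *Slc2a1* gRNA and control (0.20 to 0.38, against -0.34 to 0.07 for other pairs), in 2 of 3 of the *Slc2a1/3/5/6/8* gRNAs and control (-0.15 to 0.21, against -0.39 to 0.25), and in 0 of 3 between the deleted cultures (-0.17 to -0.04, against -0.26 to 0.36). The numbers thus met the mark for pairing in the first comparison and not in the others.

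Over all genes, 642, 2204 and 319 were called in the 3 comparisons. Leaving out 1 of the 6 samples compared gave 11 (without control replicate 2) to 943 in the first. It gave 631 (without control replicate 1) to 2406 in the second and 42 (without *Slc2a1* gRNA replicate 2) to 383 in the last. Fits without a sample of the group not compared reached 1291 calls in the first comparison and 2559 in the second. In the first and last comparisons DESeq2 called 1255 and 758, no filter 1448 and 974, and only the groups compared 2268 and 116. The fit with no replicate block called 129 in the last. Limma on log2(TPM + 1) called 0, 433 and 31, on log2(TPM + 0.1) 52, 462 and 32, and the length offset 165, 1324 and 95. Total count normalization moved the median of all genes to -0.095, -0.042 and 0.048 and the share of calls that were higher from 48.4, 53.3 and 58.9% to 23.9, 41.9 and 69.5%.

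Signs turned only in members that were not called. With the *Slc2a1* gRNA, *Max* turned to -0.072 and -0.074 with limma on log2(TPM + 1) and log2(TPM + 0.1), and *Mnt* to -0.016 with total count normalization. With the *Slc2a1/3/5/6/8* gRNAs, limma gave *Mxd4* -0.016 and -0.018 and *Mga* -0.106 and -0.114, and *Mga* was -0.034 with total count normalization and -0.025 with the length offset. Fits without 1 of the 6 samples compared also turned signs. The first comparison gave *Mxi1* -0.186 to 0.103, *Mnt* -0.003 to 0.139 and *Mga* -0.216 to 0.001. The second gave *Mxi1* -0.103 to 0.229 and *Mga* -0.15 to 0.126, and the last *Mxi1* -0.062 to 0.256 and *Mga* -0.054 to 0.229. The causes were not tested.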
